A study of Mus musculus with 6 samples.

Results

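The unfolded protein response and the integrated stress response were followed through 10 genes chosen by name, with earlier results of these data known. They were Eif2ak3, Ern1, Atf6, Atf4, Xbp1, Ddit3, Trib3, Hspa5, Hsp90b1 and Herpud1. All 10 were among the 12431 genes of the count table, and all 10 were among the 10514 genes that passed the filter on low counts. The RNA came from follicular B cells (CD21/35- CD23+) sorted from the spleens of male mice and held for 1 h in complete RPMI with no added stimulus. WT cells were Gpr174+/Y and KO cells were Gpr174-/Y, with 3 libraries of each. Gpr174 lies on the X chromosome and encodes a receptor that signals through G proteins. Its KO allele carries a tdTomato reporter in place of the receptor's coding sequence and is carried by the whole animal, so the loss was not restricted to B cells. The methods give 1 age range of adult mice for the study as a whole, and no age for single libraries. The comparison addressed which transcripts differ between cells with and without the receptor shortly after they are placed in culture.

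The endoplasmic reticulum (ER) folds secreted and membrane proteins, and unfolded chains there are sensed by PERK (encoded by Eif2ak3), IRE1α (Ern1) and ATF6. PERK phosphorylates the translation factor eIF2, which lowers general translation while favouring ATF4, and eIF2 kinases that sense amino acid shortage, viral RNA or haem shortage converge on the same step, which is why the pathway is called the integrated stress response. ATF4 and its target CHOP (Ddit3) turn on amino acid, redox and death genes, IRE1α splices Xbp1 mRNA into the form that encodes an active factor, and cleaved ATF6 induces ER chaperones. In the B lineage this machinery is best known for the enlarged ER of plasma cells, whereas follicular B cells are resting cells that secrete little.

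After 1 h, 1 of the 10 genes, Eif2ak3, passed the test and was higher in WT cells, by 1.4-fold (95% interval 1.21 to 1.61). Across all tested genes 1.82% passed. The Eif2ak3 call was lost when KO replicate 3 was left out (adjusted p = 0.115 by edgeR). The transcripts of the chaperone BiP (Hspa5), of Xbp1 and of Atf6 did not pass the test. Their 95% intervals of the fold were 0.967 to 1.17, 0.874 to 1.17 and 0.89 to 1.23. The transcripts of Atf4, Ddit3 and Trib3 did not pass the test either. On the pathway lists described further on, Ppp1r15a and Ppp1r15b, for the regulatory subunits of the eIF2 phosphatase, and Cebpb were called higher in WT cells, and Bbc3 and Nfe2l2 were called lower. Of these 5 calls, that of Ppp1r15a alone held in all 6 fits that left out a library. The 5 lists held 21, 28, 29, 16 and 11 tested genes, with Ppp1r15a in more than 1 of them. The test was edgeR's quasi-likelihood test on raw counts, fitted over all 10514 genes with Benjamini-Hochberg adjustment, and a gene was called at an adjusted p under 0.05. Fold changes are WT over KO, on the log2 scale unless called a fold.

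The promoter of Eif2ak3 is shown because it was the gene called, and those of Hspa5, Hsp90b1 and Herpud1 because they are known targets of ER stress factors. They are followed by that of Ppp1r15a, the pathway gene with the lowest adjusted p among those described here. Each runs from 250 bases before to 50 bases after the RefSeq transcription start (GRCm38.p6), 5′ to 3′ on the strand of the gene. Capitals mark the letters of CCAAT boxes read on either strand (CCAAT or ATTGG), the CCACG part of ER stress elements, the C/EBP-ATF composite and the cAMP response element TGACGTCA. Positions count from 1 at the first base shown.
Eif2ak3 (chr6:70844265-70844564, plus strand): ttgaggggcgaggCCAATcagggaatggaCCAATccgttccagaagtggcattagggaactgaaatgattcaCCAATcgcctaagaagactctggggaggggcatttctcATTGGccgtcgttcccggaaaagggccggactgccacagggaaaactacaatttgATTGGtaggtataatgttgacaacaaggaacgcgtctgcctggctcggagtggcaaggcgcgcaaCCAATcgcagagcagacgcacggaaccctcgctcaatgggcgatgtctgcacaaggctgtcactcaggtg
Hspa5 (chr2:34771840-34772139, plus strand): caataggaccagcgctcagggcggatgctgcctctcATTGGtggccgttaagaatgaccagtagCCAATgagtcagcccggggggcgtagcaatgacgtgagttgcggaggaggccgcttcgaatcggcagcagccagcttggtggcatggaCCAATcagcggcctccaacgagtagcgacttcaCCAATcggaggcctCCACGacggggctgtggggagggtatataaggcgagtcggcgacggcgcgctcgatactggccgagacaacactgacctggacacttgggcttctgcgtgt
Hsp90b1 (chr10:86705395-86705694, minus strand): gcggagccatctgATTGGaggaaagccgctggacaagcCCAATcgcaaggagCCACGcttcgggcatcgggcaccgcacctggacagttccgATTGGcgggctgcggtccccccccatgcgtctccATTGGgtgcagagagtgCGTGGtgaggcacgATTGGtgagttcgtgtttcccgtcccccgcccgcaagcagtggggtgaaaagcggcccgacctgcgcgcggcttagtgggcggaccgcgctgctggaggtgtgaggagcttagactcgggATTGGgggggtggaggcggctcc
Herpud1 (chr8:94386179-94386478, plus strand): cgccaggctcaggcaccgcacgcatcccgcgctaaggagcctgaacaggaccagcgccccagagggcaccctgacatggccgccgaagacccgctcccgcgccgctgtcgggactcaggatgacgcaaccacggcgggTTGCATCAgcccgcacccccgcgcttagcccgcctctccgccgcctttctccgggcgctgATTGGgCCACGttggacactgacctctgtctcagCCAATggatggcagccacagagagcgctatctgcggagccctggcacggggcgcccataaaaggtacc
Ppp1r15a (chr7:45526219-45526518, minus strand): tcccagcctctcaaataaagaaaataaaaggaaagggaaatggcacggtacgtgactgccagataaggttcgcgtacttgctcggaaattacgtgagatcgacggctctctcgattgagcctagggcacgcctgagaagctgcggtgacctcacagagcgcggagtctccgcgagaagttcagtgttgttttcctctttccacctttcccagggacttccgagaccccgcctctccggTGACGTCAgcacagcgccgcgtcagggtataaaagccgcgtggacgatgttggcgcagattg

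Promoters were matched for 9 of the 10 genes, all but Atf6, and motifs were searched on both strands. The ER stress element, written as CCAAT, any 9 bases and CCACG, was found in 2 of the 9 promoters. Hspa5 held 1 copy, at bases 186 to 204, and Hsp90b1 held 2, at bases 39 to 57 and, on the other strand, 144 to 162. The same letters were in 0.119% of 32851 mouse promoters of this length. Herpud1 carried the second form of the element (ATTGG, 1 base, CCACG) at bases 199 to 209, a form found in 0.0365% of promoters. Hspa5, Hsp90b1 and Herpud1 were already known targets of ER stress factors, so these shares are no test of the 10 genes. The Eif2ak3 window had neither form but had 6 CCAAT boxes, a motif present in 37.4% of promoters and in 6 of the 9. Each ER stress element contains a CCAAT box, so these counts overlap. The composite site for C/EBP and ATF proteins, TGATGNAA, was in Herpud1 and Trib3, against 3.97% of promoters. Ppp1r15a had the palindrome TGACGTCA at bases 239 to 246, which was in 1.79% of all promoters and in 0 of the 9. Its first letters, TGACG, occur with or without the rest of the palindrome in 20.8% of promoters and in 4 of the 9. Eif2ak3 had neither the palindrome nor TGACG. Promoters were matched for 4 of the 5 called list genes, all but Ppp1r15b. The palindrome was not found in those of Cebpb, Bbc3 or Nfe2l2. A match describes the letters in the window and does not show that a factor binds there.

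The libraries held 8452460 to 10944833 counts, and replicates within a genotype differed by more than sampling noise. On the first principal component (40% of the variance of 500 genes) WT replicate 2 scored 32.5 and the others scored -8.18 to -4.33. Fits were therefore also run without it, and their results are named for some of the genes below. Gpr174 counts were 1485, 1052 and 1070 in WT libraries and 1097, 919 and 1024 in KO libraries. Gpr174 was called higher in WT cells, with no overlap (log2 fold change 0.35, SE 0.09, adjusted p = 0.0359 by edgeR). Where its reads fall relative to the replaced sequence was not examined, so counts in KO libraries are not taken as a check of the genotype. Across all genes 191 were called, or 1.82% of those tested, with 1.3% higher and 0.514% lower in WT cells. At an unadjusted p under 0.05 the share was 11.9%, and in 16.7% of genes the WT and KO values did not overlap. The median log2 fold change of all tested genes was -0.003.

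Among the 10 stress response genes, 1 was called (1.82% of all genes), and it was higher in WT cells (1.3% of all genes). None was called lower (0.514% of all genes), by edgeR, DESeq2 or limma-voom. At an unadjusted p under 0.05 there were 4, against 11.9% of all genes: Eif2ak3 and Hsp90b1 higher, Herpud1 and Ern1 lower in WT cells. The same 4 genes were those whose WT and KO libraries did not overlap, against 16.7% of all genes. By sign alone, 5 were higher and 5 lower, around a median difference of -0.06 (log2 scale), with a range from -1.77 to 0.48. Levels below are CPM, the counts a gene would have in a library of 1000000 counts, computed on totals scaled by TMM factors. They were not divided by gene length, so they are compared between libraries for one gene. A rank by mean CPM served only to choose which uncalled list genes to name.

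**Figure D1:**
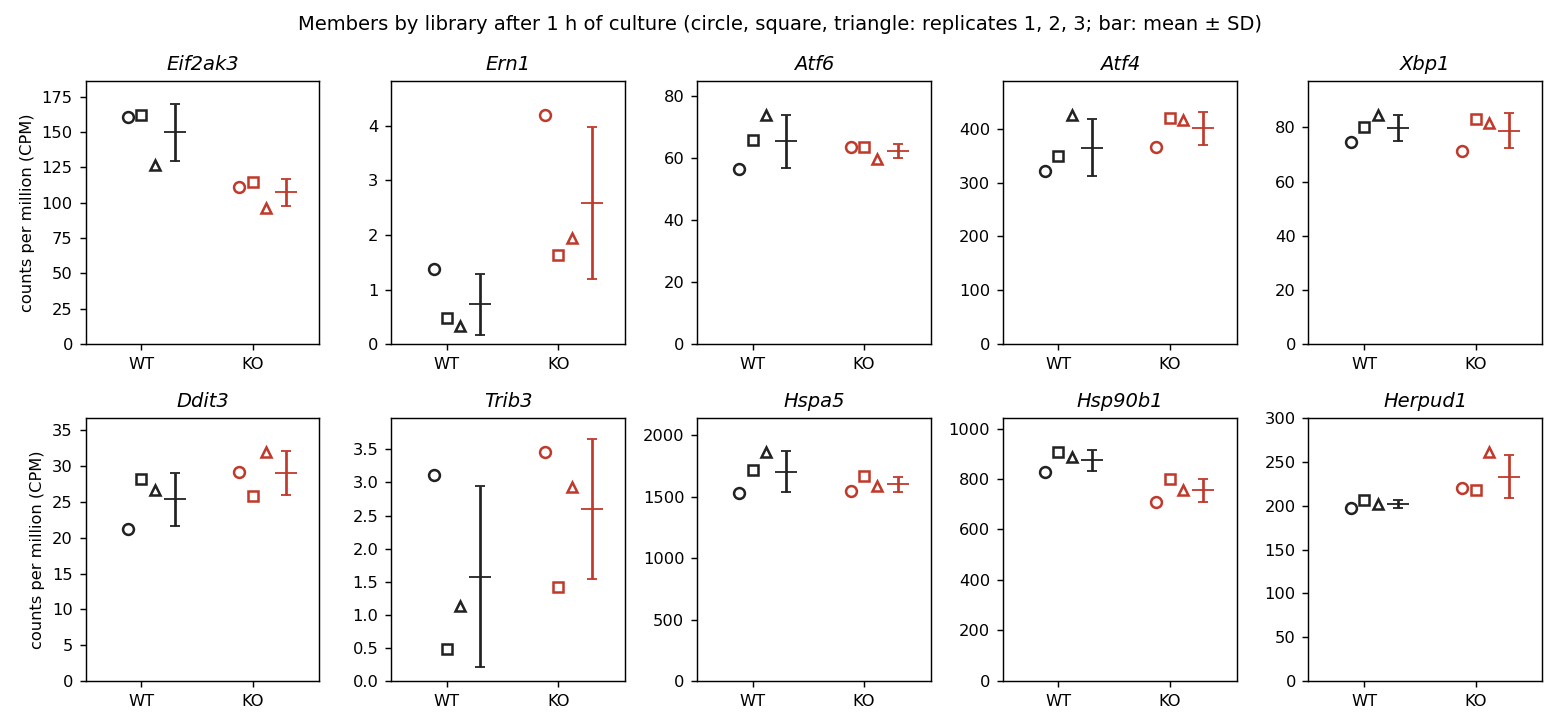
CPM (linear axis from 0, a separate scale in each panel) of the 10 stress response genes in each WT (black) and KO (red) library after 1 h of culture. Circles, squares and triangles are replicates 1, 2 and 3 and the bars give the mean ± SD of 3 libraries. Eif2ak3 and Hsp90b1 lie higher in every WT library than in any KO library, Ern1 and Herpud1 lie lower, and the other 6 genes overlap.

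Among the 3 sensors, Eif2ak3 (mm10 chr6:70844515-70905245, plus strand) encodes PERK, the ER-resident eIF2 kinase. Its level was 160.8, 161.7 and 126.5 CPM in WT libraries 1 to 3, from 1758, 1356 and 1114 counts. In KO libraries it was 110.9, 114.5 and 96.31 CPM, from 1218, 1050 and 988 counts. Every WT library was above every KO library, although WT replicate 3 was closer to KO replicate 2 than to the other WT libraries. The means were 149.7 ± 20.1 CPM in WT and 107.2 ± 9.61 CPM in KO cells (SD, n = 3 each). edgeR's quasi-likelihood test gave a log2 difference of 0.48 (SE 0.10) and an adjusted p of 0.00707, which placed Eif2ak3 at rank 87 of all genes by p. Without WT replicate 2 the change was 0.42 with an adjusted p of 0.0291. Without KO replicate 3, the lowest library, it was 0.41 and the call was lost, with an adjusted p of 0.115. The call held when any of the other 5 libraries was left out and in all 8 other fits, whose adjusted p ran from 0.0012 to 0.0128. The exons of the Eif2ak3 gene overlap a little-characterised locus, Gm43292, on the opposite strand, and the strand setting of the counting was not given in the sources used here.

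Ern1 (chr11:106394650-106487852, minus strand) encodes IRE1α, the kinase and RNase that splices Xbp1 mRNA. It was near the lower limit of detection, with 15, 4 and 3 counts in WT and 46, 15 and 20 counts in KO libraries. These correspond to 1.37, 0.48 and 0.34 CPM in WT and to 4.19, 1.64 and 1.95 CPM in KO cells. The groups did not overlap, but WT replicate 1 was close to KO replicate 2. WT minus KO was -1.77 on the log2 scale (SE 0.71), the interval from -3.22 to -0.33 was the widest of the 10, and edgeR's adjusted p was 0.271. The estimate moved between -2.64 and -1.25 when single libraries were left out, and no such fit called it.

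Atf6 (chr1:170704674-170867771, minus strand) encodes the sensor that is released from the ER and cleaved in the Golgi to yield a transcription factor. Its level was 56.54, 65.83 and 73.79 CPM in WT and 63.53, 63.67 and 59.66 CPM in KO libraries. The WT libraries spread to both sides of the KO libraries. The fitted change was 0.07 (SE 0.12, interval -0.17 to 0.30, adjusted p = 0.874), and its sign turned without WT replicate 3. The 3 sensors therefore gave 3 different readings: 1 called higher, 1 at low counts and not called, and 1 with overlapping groups.

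**Figure D2:**
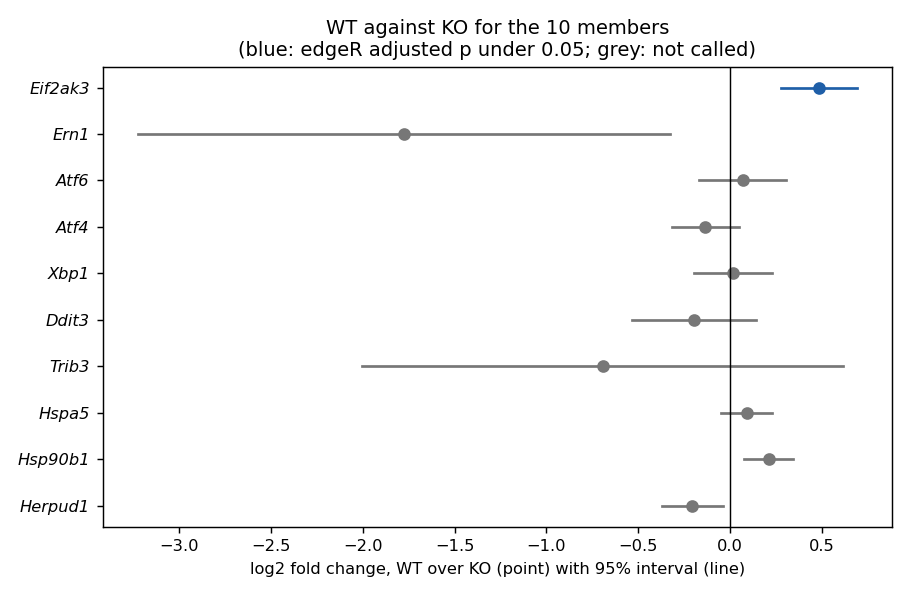
log2 fold change, WT over KO, of the 10 genes (points) with 95% intervals from edgeR's quasi-likelihood fit on 3 libraries per genotype (lines), ordered by role from the sensors at the top to Herpud1 at the bottom. Only the interval of Eif2ak3 belongs to a called gene (blue), and those of Ern1 and Trib3, the genes with few counts, are the widest.

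Of the transcription factors, Atf4 (chr15:80255184-80257541, plus strand) encodes the main effector of eIF2 phosphorylation. It had 321.6, 348.6 and 424.8 CPM in WT and 365.5, 419.9 and 416.8 CPM in KO libraries. The groups overlapped, since WT replicate 3 was the highest of the 6 and WT replicates 1 and 2 were the lowest. Atf4 differed by -0.14 (SE 0.09, interval -0.32 to 0.05, adjusted p = 0.601). ATF4 is controlled largely at translation, which transcript counts do not record.

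Xbp1 (chr11:5520659-5525893, plus strand) encodes the factor that drives ER expansion in secretory cells. Its level was 74.65, 80.26 and 84.46 CPM in WT and 71.45, 83.29 and 81.79 CPM in KO libraries. The values interleaved, and the means of 79.79 ± 4.92 and 78.84 ± 6.45 CPM were closer together than the replicates of either genotype. The log2 fold change was 0.02 (SE 0.10), and the interval of the fold was 0.874 to 1.17 for the total transcript. Counts at the 3′ end sum the spliced and unspliced forms of Xbp1, so IRE1α activity was not measured.

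Ddit3 (chr10:127290774-127296288, plus strand) encodes CHOP, the ATF4 target that promotes death under lasting ER stress. It was at 21.23, 28.26 and 26.68 CPM in WT and 29.22, 25.84 and 31.97 CPM in KO libraries. WT replicate 1 was the lowest and the other libraries overlapped. For Ddit3 the fitted change was -0.20 (SE 0.16, interval -0.53 to 0.14, adjusted p = 0.709). Exons of Ddit3 overlap those of Mars on the opposite strand, so its counts carry the same limit on strand as those of Eif2ak3.

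Trib3 (chr2:152337422-152344032, minus strand) encodes a pseudokinase that is induced by ATF4 and CHOP and restrains them. It had 34, 4 and 10 counts in WT and 38, 13 and 30 counts in KO libraries, or 3.11, 0.48 and 1.14 against 3.46, 1.42 and 2.92 CPM. In both genotypes replicate 1 was highest and replicate 2 lowest, and the groups overlapped. Its fitted change was -0.69 with an interval from -2.00 to 0.62 (adjusted p = 0.747), or 0.25 to 1.53 as a fold.

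Of the ER chaperones, Hspa5 (chr2:34771970-34777547, plus strand) encodes BiP, the Hsp70 of the ER, which holds the sensors inactive and is the usual readout of ER stress. It had 14420 to 17007 counts per library. The levels were 1532, 1720 and 1865 CPM in WT and 1548, 1672 and 1586 CPM in KO libraries. WT libraries were both the lowest and the highest. BiP transcripts differed by 0.09 (SE 0.07, adjusted p = 0.665), and the interval of the fold, 0.967 to 1.17, was among the narrowest.

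Hsp90b1 (chr10:86690209-86705509, minus strand) encodes GRP94, the Hsp90 of the ER, which folds Toll-like receptors and integrins in B cells. Its levels were 826.9, 906.8 and 888.9 CPM in WT and 708.7, 801.1 and 757.2 CPM in KO libraries. Every WT library was above every KO library, by a small margin between WT replicate 1 and KO replicate 2. The means were 874.2 ± 41.9 and 755.7 ± 46.2 CPM, a 1.16-fold difference. On the log2 scale this was 0.21 (SE 0.07), at an unadjusted p of 0.00348 and an adjusted p of 0.115 by edgeR, which missed the threshold. It was called by DESeq2 (adjusted p = 0.0456) and in the fit with the replicate number as a block (0.0462), and in none of the 6 fits with a library left out (0.0896 to 0.439). Its exons overlap other annotated transcripts on both strands, so its counts may hold reads of these.

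Herpud1 (chr8:94386438-94395377, plus strand) encodes HERP, a membrane protein of the complex that removes misfolded proteins from the ER, and is a target of both ATF6 and ATF4. Its levels were 197.1, 206.9 and 202.5 CPM in WT and 220.9, 217.5 and 261.4 CPM in KO libraries. All WT libraries were below all KO libraries, and KO replicate 3 stood above the other KO libraries. The means were 202.2 ± 4.93 and 233.2 ± 24.4 CPM, which differed by -0.21 on the log2 scale (SE 0.08, adjusted p = 0.259). Herpud1 and Hsp90b1, whose promoters both hold an ER stress element, thus had estimates of similar size and opposite sign, and neither was called.

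No single library was at the same end for all 10 genes. WT replicate 1 was the lowest library for 5 of them and the highest for 0. WT replicate 3 was the highest for 4 and the lowest for 1, while KO replicate 2 was never at either end. The only call among the 10, Eif2ak3, was kept without WT replicate 2, the library that stood apart, and lost without KO replicate 3.

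The other genes of the pathways were read from 5 lists. Their counts carry no test of the list. They are set beside the shares of all genes given above: 1.82% called, 11.9% at an unadjusted p under 0.05 and 16.7% without overlap. Of 21 ER chaperones and folding enzymes that passed the filter, out of 22 listed, 0 were called in either direction at the adjusted threshold of edgeR or by any of the alternatives tried, 2 had an unadjusted p under 0.05, and 1 did not overlap between genotypes. Their median log2 fold change was -0.01. Calr, the lectin chaperone calreticulin, averaged 795.3 ± 73 CPM for WT and 806.6 ± 38.1 CPM for KO libraries, with a log2 fold change of -0.02 (interval -0.16 to 0.12). Canx, its membrane-bound counterpart calnexin, was at 395.1 ± 19 and 374.1 ± 29.3 CPM, with a change of 0.08 (interval -0.07 to 0.23). These 2 had the highest mean CPM of the list.

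All 28 genes of ER-associated degradation and translocation passed the filter, 0 were called by edgeR or by any of the alternatives tried, 4 had an unadjusted p under 0.05 and 4 did not overlap. Their median log2 fold change was 0.001 and they ranged from -0.40 to 0.53. Sec62, a subunit of the protein-import channel, had a change of 0.11 (interval -0.03 to 0.24). Ubxn4, a membrane anchor for the ATPase that extracts proteins from the ER, had a change of -0.02 (interval -0.16 to 0.13).

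Of 36 target genes of ATF4 and CHOP, 30 were in the table and 29 were tested. There were 2 called higher and 1 called lower in WT cells, and 9 did not overlap between genotypes. At an unadjusted p under 0.05 by edgeR there were 8, of which 6 were higher and 2 lower in WT cells. The median log2 fold change was 0.08. Ppp1r15a encodes GADD34, the stress-induced subunit that brings a phosphatase to eIF2 and reverses its phosphorylation. It had 151.1, 183.3 and 154.7 CPM in WT and 112.3, 124.8 and 93.39 CPM in KO libraries. The WT libraries were all above the KO libraries, and edgeR gave a log2 difference of 0.57 (SE 0.10, adjusted p = 0.00187). It was called in all 6 fits with a library left out and in all 8 other fits, so among the genes described here this call was the most stable. Exons of Ppp1r15a overlap Tulp2 on the opposite strand, those of Cebpb overlap Tmem189 and those of Ppp1r15b overlap Gm26616, so the limit on strand holds for all 3.

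The other calls of that list were less stable. Cebpb, a C/EBP transcription factor, had 11.89, 15.62 and 10.79 CPM in WT and 7.372, 6.214 and 4.582 CPM in KO libraries, with no overlap. Its log2 fold change was 1.07 (SE 0.27) and its edgeR adjusted p 0.0364, but it was called in 0 of the 6 fits with a library left out (0.0538 to 0.249) and not by limma-voom (0.0593). Bbc3, which encodes the BH3-only death protein PUMA and is induced by CHOP and by p53, was lower in WT cells. It had 37.88, 33.03 and 40.87 CPM in WT and 48.79, 54.29 and 62 CPM in KO libraries. The groups did not overlap, the log2 fold change was -0.56 (SE 0.13, adjusted p = 0.0182), and 3 of the 6 fits with a library left out called it. The calls lost were those without WT replicate 2 (adjusted p = 0.066) and without KO replicate 2 or 3.

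The 2 genes of the list with the highest mean CPM were not called by edgeR. Sqstm1, the autophagy receptor p62, had a log2 fold change of 0.004 (interval -0.14 to 0.15). Slc3a2, the heavy chain of amino acid transporters, had a change of 0.28 (SE 0.08) with 268.9, 286.7 and 301.8 CPM in WT and 212.3, 258.4 and 236.3 CPM in KO libraries. The groups for Slc3a2 did not overlap, and its adjusted p by edgeR was 0.0736.

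In the list of eIF2 kinases, phosphatase subunits, eIF2 and its exchange factor eIF2B, 16 of 16 genes were tested. Both phosphatase subunits were called higher in WT cells, 0 genes were called lower by edgeR, DESeq2 or limma-voom, and 5 did not overlap between genotypes. At an unadjusted p under 0.05 by edgeR there were 4, of which 3 were higher and 1 lower in WT cells. Ppp1r15a is counted in this list as well. Ppp1r15b encodes CReP, the constitutive partner of GADD34. It had 192.2, 213 and 195.5 CPM in WT and 158.6, 160.5 and 151.3 CPM in KO libraries, so the groups were well apart. Its log2 fold change was 0.35 (SE 0.08) and its edgeR adjusted p 0.0143, and 2 of the 6 fits with a library left out called it (0.0216 to 0.129). It was not called without WT replicate 2, at 0.0538. Eif2s2, the β subunit of eIF2 and the other gene named for its mean CPM, had a change of -0.09 (interval -0.27 to 0.10). The median of the list was 0.004.

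Among sensor partners and related factors, 11 of 12 genes were tested and 3 did not overlap. There were 0 called higher (0 also by DESeq2 or limma-voom) and 1 called lower in WT cells. At an unadjusted p under 0.05 by edgeR, 0 were higher and 2 lower. The gene called was Nfe2l2, which encodes NRF2, the regulator of antioxidant genes and a substrate of PERK. It had 152.1, 164.2 and 153.4 CPM in WT and 187.2, 191.9 and 201.1 CPM in KO libraries. The groups did not overlap, the log2 fold change was -0.31 (SE 0.08) and the edgeR adjusted p was 0.0423. Only the fit without WT replicate 2 called it among the 6 with a library left out, and limma-voom did not (adjusted p = 0.0524). The genes named for their mean CPM, Tmbim6, an ER calcium leak protein that binds IRE1α, and D10Wsu52e, the ligase RTCB that joins the Xbp1 exons, had changes of 0.03 (interval -0.11 to 0.16) and -0.10 (interval -0.26 to 0.06).

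**Figure D3:**
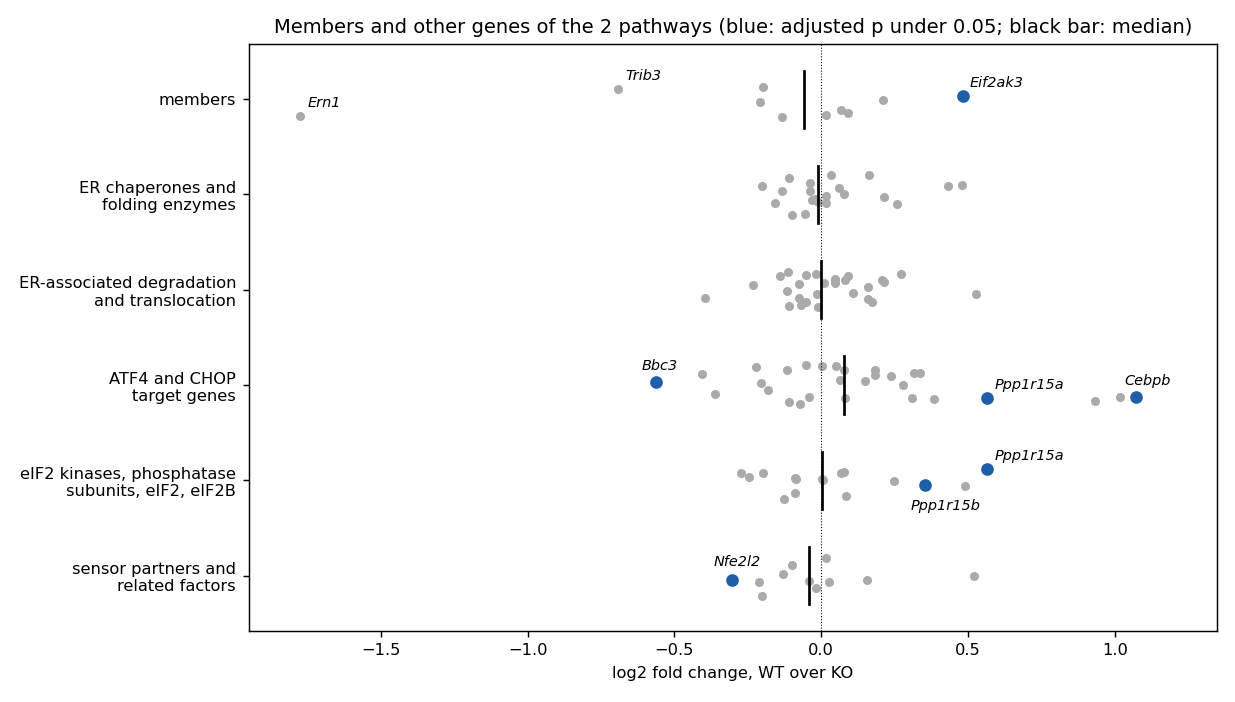
log2 fold change, WT over KO, of the 10 chosen genes (members) and of each tested gene in the 5 pathway lists, jittered vertically within its row. Larger blue points have an edgeR adjusted p under 0.05, black bars are medians and the dotted line marks no difference. All medians lie between -0.06 and 0.08, and Ppp1r15a appears in 2 rows.

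**Figure D4:**
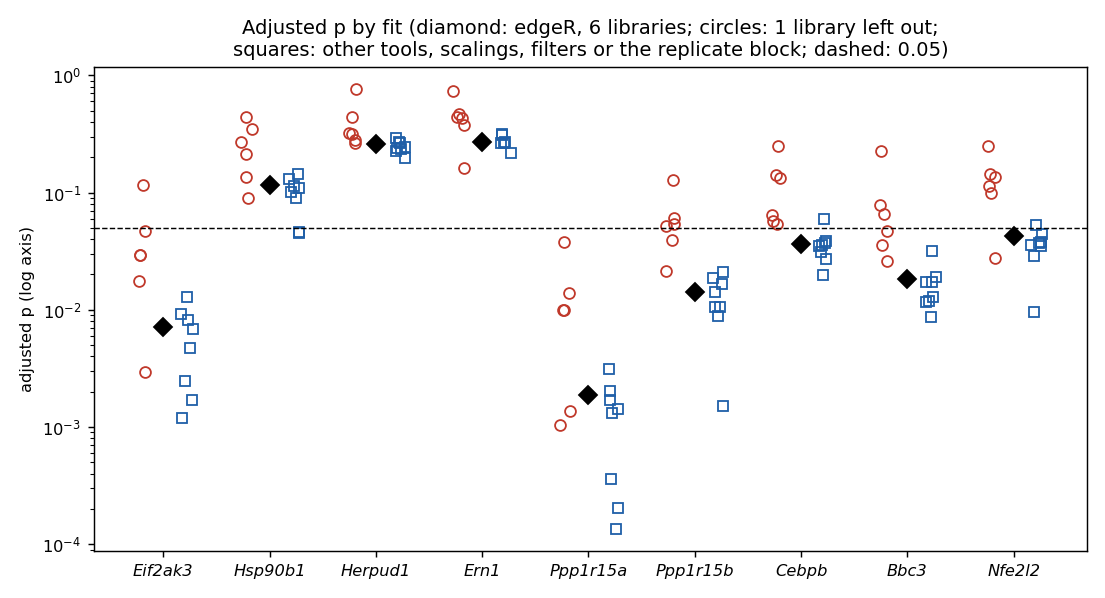
Adjusted p (log axis) of 4 of the 10 genes and of the 5 called list genes under each fit. Diamonds are edgeR on 6 libraries, red circles leave out 1 library each, blue squares use other tools, scalings or filters or the replicate block, and the dashed line is 0.05. The points of Ppp1r15a all lie under the line, those of Eif2ak3 do so but for 1 circle, and those of Herpud1 and Ern1 all lie above it.

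Markers of other cells were read beside these results, since plasma cells express the secretory machinery strongly, and in bulk RNA fewer cells of a type and less RNA per cell cannot be told apart. The 7 follicular B markers measured, out of 8 listed, summed to 3980 to 4130 CPM in WT and 4570 to 4680 CPM in KO libraries. Markers of the labelled cell type were thus present, and their sums did not overlap. By sign 5 were lower and 2 higher in WT cells, and 1 was called lower (edgeR adjusted p = 0.000358). Cd79b had 761.6, 720.3 and 727 CPM in WT and 1015, 926.6 and 951.7 CPM in KO libraries. The paper reports Cd22 and Fcer2a, both in this list, as higher in KO cells after longer culture. The sum therefore need not reflect cell content alone. The 6 plasma cell markers summed to 396 to 407 CPM in WT and 430 to 479 CPM in KO libraries. Most of this sum came from 2010001M09Rik (Mzb1), with 266.6, 274.2 and 254.9 CPM in WT against 310.8, 307.9 and 264.6 CPM in KO libraries, and from Slamf7. Slamf7, a surface receptor, was at 96.79, 82.16 and 106 CPM in WT and 127.5, 135.6 and 131.9 CPM in KO libraries, and was called lower in WT cells (log2 fold change -0.47, edgeR adjusted p = 0.00655). Igj went the other way, with 24.15, 22.66 and 13.85 CPM in WT against 14.29, 15.81 and 13.75 CPM in KO libraries. Its groups overlapped. By sign, 2 of the 5 plasma cell markers tested were higher and 3 lower in WT cells. At an unadjusted p under 0.05 by edgeR, 1 was higher and 1 lower. The defining markers were low: Sdc1 was at 5.946 to 10.44 CPM, and Tnfrsf17 was at 0 in 3 libraries and under 0.6 CPM in the others. The 5 markers listed for marginal zone B cells summed to 1250 to 1340 CPM in WT and 1230 to 1420 CPM in KO libraries. Most of this came from Cr2, which encodes CD21/35, at 980.8 to 1166 CPM. The cells were labelled CD21/35-, and the reason for this level was not tested. The T cell sums were 4.77 to 11 and 4.28 to 7.52 CPM, and the NK cell sums 7.04 to 10.9 and 5.17 to 5.64 CPM. The myeloid sums were 40.2 to 53.5 CPM in WT and 35.2 to 40 CPM in KO libraries. The erythroid sums, nearly all from Beta-s, were 2680 to 4710 and 3010 to 7570 CPM, with KO replicate 3 far below the other KO libraries. No marker in the table was at 0 in all 6 libraries. The part of these differences in the calls above was not tested.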

How the data were processed

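Splenic follicular B cells of male Gpr174+/Y and Gpr174-/Y mice were purified by flow cytometry, and libraries were made after 1 h of culture with the QuantSeq 3′ kit, which reads the 3′ end of polyadenylated RNA. The authors mapped single-end reads to mm10 (STAR), assigned them to genes (HTSeq) and deposited the raw counts of 6 libraries. Versions, gene annotation and strand setting are not given in the sources used here. The smallest total of a gene over the 6 libraries was 10 counts. The methods describe no use of molecular identifiers, so counts may include copies of the same molecule. Neither the labels nor the methods say whether the 1 h libraries of a genotype came from separate mice. The p-values and intervals therefore rest on the spread between these libraries, which may be technical.

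From the deposited counts, genes were filtered with filterByExpr and scaled by TMM, and genotype was tested with edgeR 4.0.16 (glmQLFit, robust) in R 4.3.3, two-sided, with Benjamini-Hochberg adjustment over all tested genes. CPM used TMM-scaled totals. Intervals are 95% intervals of the fitted log2 fold change. DESeq2 1.42.0, limma-voom (limma 3.58.1), other scalings, no filter, a mean of at least 50 counts, a replicate block, an adjusted p under 0.01 and leaving out each library were alternatives. The procedure was tested on simulated data. Positions are from GENCODE M21 on mm10 and promoters from RefSeq.

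The 10 genes and all lists were chosen with earlier results of these data known. Named genes were the 10, every called gene of a list, and its 2 genes of highest mean CPM. Groups of 3 were too small for the test for outlying libraries.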

Additional observations from a re-analysis of the deposited data

How the results depend on the processing

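All 10 genes kept their direction in every fit except Atf6, with a log2 fold change of -0.029 to 0.166 with a library left out (-0.029 without WT replicate 3), and Xbp1, at -0.049 to 0.065 (-0.027 without WT replicate 3, -0.049 without KO replicate 1). The genes called, 191, became 95 at an adjusted p under 0.01 and 91 to 183 with a library left out (113 without KO replicate 2, 91 without KO replicate 3). The 10 genes had 2 calls with DESeq2, which gave an adjusted p for 8 of them, and 0 to 1 with a library left out, with 0 without KO replicate 3. With the replicate block they had 2, adding Hsp90b1, and the ATF4 and CHOP targets had 5 in place of 3. That list had 1 call at an adjusted p under 0.01 and 1 to 3 with a library left out. It had 1 without WT replicate 2, KO replicate 2 or KO replicate 3. The eIF2 list had 1 call in place of 2 at an adjusted p under 0.01 and 1 to 2 with a library left out, with 1 without WT replicate 2 or any KO library. The sensor partner list had 0 calls in place of 1 under limma-voom and at an adjusted p under 0.01, and 0 to 1 with a library left out. The cause of these changes was not tested. Same-numbered libraries deviated together only weakly (correlations 0.05, 0.014 and 0.043). With 3 libraries per genotype this cannot decide whether the numbers pair the samples, and the main fit did not pair them. The replicate block gave 281 called genes in place of 191. The depth of Ern1 and Trib3, with 3 to 46 counts per library, limits what they can show.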
